A study of Mus musculus with 4 samples.

Results

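The 10 genes described here encode the transcription factors that steer blood stem and progenitor cells towards the granulocyte, monocyte, erythroid, megakaryocyte and lymphoid lineages: Spi1, Cebpa, Cebpb, Cebpe, Gfi1, Gfi1b, Gata1, Gata2, Klf1 and Ikzf1. They are a named set, chosen with earlier results of these data known, out of 22180 genes that the array table and the platform annotation pair with a single symbol, and each of the 10 had exactly 1 row. The cells were sorted Thy1+ LSK cells of mouse bone marrow, the Lin- Sca-1+ Kit+ fraction in which stem cells are concentrated. There were 2 arrays of Nol3-/- MPN mice and 2 arrays of Nol3+/+ mice, all on the C57BL/6 background, aged 11 to 18 months and untreated, and Nol3 encodes the apoptosis inhibitor ARC. MPN is taken here to mean myeloproliferative neoplasm. The sample labels give MPN to the Nol3-/- mice only, although the series title can be read as giving it to both genotypes. Whether an array held 1 animal or a pool, and in which cells Nol3 was deleted, is not given in the labels, so p-values measure the spread between these arrays only.

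Lineage choice in blood is set by a small circuit of such factors. PU.1, the product of Spi1, and the C/EBP proteins open the granulocyte and monocyte programme. GATA2 acts in stem cells and early progenitors and gives way to GATA1, which with KLF1 drives red cell genes, and PU.1 and GATA1 oppose each other by direct contact. GFI1 and GFI1B are related repressors, the first mainly in neutrophil and lymphoid precursors and the second in erythroid and megakaryocytic ones, and Ikaros, the product of Ikzf1, prepares progenitors for lymphoid development.

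None of the factors passed the adjusted threshold between Nol3-/- MPN and Nol3+/+ cells. Of the 10, 9 were bright enough to test and Gfi1 was not. Called at the adjusted threshold were 0 of these 9 and 4 of 16635 genes overall (0.024%; limma with Benjamini-Hochberg adjustment over all genes). The factors' limma adjusted p-values lay between 0.841 and 0.988. At an unadjusted p under 0.05 there was 1 factor of 9, Cebpb, against 5.8% of all genes tested in either direction and 2.07% with a lower mean, the direction of Cebpb. The tested factors split into 5 with higher and 4 with lower means in Nol3-/- MPN cells, where 51.7% of all tested genes were higher and 48.3% lower. Their median log2 difference was 0.04, against 0.01 over all genes tested, and its sign was not settled: with any 1 of the 4 arrays left out it lay between -0.096 and -0.019. Of the 9, 7 differed by less than 0.25 log2 units in either direction. With 2 arrays a side the SE was between 0.12 and 0.22 log2 units for 8 factors and was 0.50 for Ikzf1, and a p that misses the threshold at this spread does not show that the factors were equal.

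**Figure D1:**
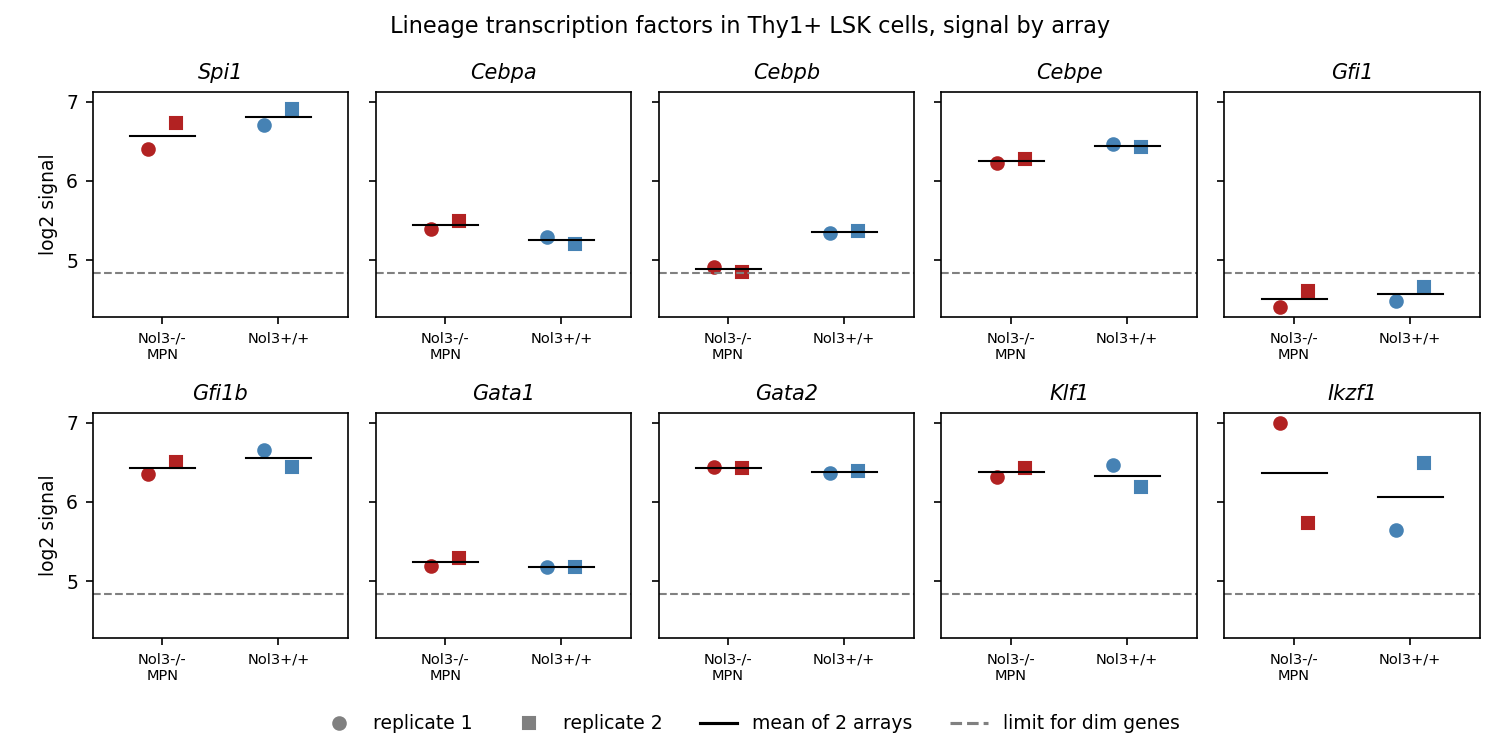
Deposited log2 signal (y axis) of each of the 10 factors in the 2 Nol3-/- MPN arrays (red, left) and the 2 Nol3+/+ arrays (blue, right). Circles are replicate 1, squares replicate 2, black bars the mean of 2 arrays and the dashed line the limit for dim genes at 4.835. Cebpb lies lower in the Nol3-/- MPN arrays, Ikzf1 is spread widely within each group, and Gfi1 lies under the limit on every array.

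Nol3+/+ replicate 1 stood somewhat apart. Across tested genes this array correlated with the other 3 arrays at r = 0.899 to 0.911, whereas those 3 correlated with each other at r = 0.929 to 0.949 (across genes, which are not independent replicates). The Nol3 row read 5.38 and 5.50 in Nol3-/- MPN arrays and 5.31 and 5.52 in Nol3+/+ arrays, and since the position of the deletion relative to its probes is not given in the labels it does not check the genotype. Of the sort genes, Kit read 8.38 and 7.39 in Nol3-/- MPN arrays and 8.07 and 8.10 in Nol3+/+ arrays, Thy1 read 4.64 and 5.24 in Nol3-/- MPN arrays and 4.74 and 5.02 in Nol3+/+ arrays, close to the limit for dim genes, and Ly6a had no single-symbol row. A wider list of stem and progenitor genes, which holds Kit and Thy1, had 8 tested genes, 4 with higher and 4 with lower means. Of these 8, 1 reached an unadjusted p under 0.05, against 5.8% of all genes in either direction and 2.07% lower. It was the stem cell transcription factor gene Hlf, which read 5.37 and 5.50 in Nol3-/- MPN arrays and 6.44 and 6.09 in Nol3+/+ arrays (log2 difference -0.83, SE 0.18, limma adjusted p = 0.841). Procr, a stem cell surface receptor, read 7.85 and 7.87 in Nol3-/- MPN arrays and 8.15 and 8.11 in Nol3+/+ arrays (log2 difference -0.27). Mecom ran the other way, at 6.44 and 6.36 in Nol3-/- MPN arrays and 5.84 and 6.34 in Nol3+/+ arrays (log2 difference 0.31). Cd34, Slamf1 and Meis1 had differences of 0.0015, -2e-05 and 0.011. Xist, the RNA of the inactive X chromosome, read 10.9 and 10.7 in Nol3-/- MPN arrays and 5.43 and 5.28 in Nol3+/+ arrays. The Y-linked gene Eif2s3y read 4.24 and 3.97 in Nol3-/- MPN arrays and 6.53 and 7.17 in Nol3+/+ arrays. Uty, also Y-linked, read 4.62 and 4.59 in Nol3-/- MPN arrays and 5.81 and 6.39 in Nol3+/+ arrays. By these genes the Nol3-/- MPN arrays were of female type and the Nol3+/+ arrays of male type. Sex-linked signal, genotype and the disease label thus divide the 4 arrays in the same way and cannot be told apart. All levels are log2 signals of 1 row of probes each, so a level is compared between arrays and not between genes.

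Cebpb and Cebpa were the C/EBP genes with the largest differences in opposite directions. Klf1 and Gfi1b were the factors whose promoter windows held a GATA element. The promoter sequences of these 4 factors are printed with short elements marked. Each is the 250 bases before the RefSeq start site (build GRCm38.p6), 5′ to 3′ on the strand of the gene. They lie at chr2:167688665-167688914 (plus strand) for Cebpb, chr7:35119043-35119292 (plus) for Cebpa, chr8:84901732-84901981 (plus) for Klf1 and chr2:28621983-28622232 (minus) for Gfi1b. Capitals mark TGACG, the core of the cAMP response element, and TTGCG, a core of C/EBP sites, in the C/EBP promoters, and AGATAA or AGATAG as well as TGATAA or TGATAG, the forms of the GATA element, in the other promoters, each on either strand.
Cebpb promoter: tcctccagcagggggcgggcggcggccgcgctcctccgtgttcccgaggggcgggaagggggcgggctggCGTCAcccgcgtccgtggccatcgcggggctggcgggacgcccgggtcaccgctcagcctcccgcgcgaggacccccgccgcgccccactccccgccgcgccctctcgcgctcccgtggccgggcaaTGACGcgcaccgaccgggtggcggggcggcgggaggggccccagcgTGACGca
Cebpa promoter: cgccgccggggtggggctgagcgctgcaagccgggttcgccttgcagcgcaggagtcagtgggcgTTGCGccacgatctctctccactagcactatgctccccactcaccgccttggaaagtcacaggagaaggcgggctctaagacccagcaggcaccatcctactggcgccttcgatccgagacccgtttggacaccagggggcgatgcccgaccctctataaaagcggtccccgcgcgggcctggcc
Klf1 promoter: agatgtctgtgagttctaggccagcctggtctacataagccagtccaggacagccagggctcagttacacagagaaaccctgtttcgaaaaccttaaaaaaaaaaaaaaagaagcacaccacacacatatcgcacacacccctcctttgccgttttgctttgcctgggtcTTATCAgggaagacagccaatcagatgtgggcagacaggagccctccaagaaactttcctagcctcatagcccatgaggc
Gfi1b promoter: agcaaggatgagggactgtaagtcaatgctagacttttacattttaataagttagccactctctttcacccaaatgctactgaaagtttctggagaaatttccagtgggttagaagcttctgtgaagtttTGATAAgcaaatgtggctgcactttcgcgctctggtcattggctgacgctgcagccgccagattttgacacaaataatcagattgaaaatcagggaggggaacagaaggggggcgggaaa

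RefSeq start sites were listed for 8 of the 10 factors, with several for 3 of them, 11 windows in all; Spi1 and Cebpe had no entry. The Cebpb window held TGACG 3 times, starting at -180, -53 and -7, and the Gfi1b window held it once at -77. TTGCG was found once in the Cebpa window at -185 and once in each of the Gata2 windows, at -38 and -128. Of 32851 promoter windows of the same length, 17.8% hold TGACG and 14.5% hold TTGCG on either strand. The Klf1 and Gfi1b windows held a GATA element starting at -80 and -120, and 26.5% of all windows hold it. The element GAGGAA, bound by PU.1, was found in the Gata1 window at -22 (23.3% of all windows), and AAATCA, which holds the AATC core bound by GFI1 proteins, in those of Gfi1b and Ikzf1 (12.4%). CCNCNCCC, a CACCC form bound by KLF1, was found in 9 of the 11 windows, against 45.9% of all windows. Matches of different elements shared no base in any of these windows, whereas matches of CCNCNCCC shared bases with each other in the Cebpb window and in 1 Gata2 window. Such matches are a description of the letters and show no binding.

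Cebpb, which encodes C/EBPβ, a factor of macrophages and of granulocyte production under stress, was the member with the smallest p. It read 4.92 and 4.85 in the Nol3-/- MPN arrays, against 5.34 and 5.37 in the Nol3+/+ arrays. The groups did not overlap, and the Nol3-/- MPN signals lay just above the limit for dim genes of 4.835. The mean log2 signal was 4.88 ± 0.05 in Nol3-/- MPN cells and 5.35 ± 0.02 in Nol3+/+ cells (SD, n = 2 each). The log2 difference was -0.47 (SE 0.12, 95% interval -0.78 to -0.17), a ratio of 0.721 (limma adjusted p = 0.841). In absolute size it exceeded 90.1% of the differences of all genes tested. An exact permutation test of 2 arrays against 2 cannot go below a two-sided p of 0.333, so single values are judged by limma alone. How much of such low signals is background was not tested, so the ratio is one of deposited signals.

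Cebpa, whose product C/EBPα is required for progenitors to enter the granulocyte and monocyte path, ran the other way. Its signal was 5.39 and 5.49 in Nol3-/- MPN arrays, against 5.29 and 5.20 in Nol3+/+ arrays. The arrays did not overlap, but the log2 difference was 0.19 (SE 0.13, interval -0.13 to 0.51, limma adjusted p = 0.863). Cebpe, the C/EBP factor of late granulocyte maturation and secondary granule genes, read 6.23 and 6.27 in Nol3-/- MPN arrays, against 6.47 and 6.42 in Nol3+/+ arrays. These arrays also did not overlap, with a log2 difference of -0.20 (SE 0.17, interval -0.62 to 0.23, limma adjusted p = 0.888). Within each array the Cebpa signal minus the Cebpb signal was 0.48 and 0.64 in Nol3-/- MPN cells and -0.05 and -0.16 in Nol3+/+ cells, a shift of 0.67 log2 units between the group means. This pair was picked after its values were seen, so the shift is given without a test, and only the shift, not the level, can be read.

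Spi1, the gene of PU.1, showed overlapping groups. Its signal was 6.40 and 6.73 in Nol3-/- MPN arrays, against 6.70 and 6.91 in Nol3+/+ arrays, with Nol3-/- MPN replicate 2 above Nol3+/+ replicate 1. The log2 difference was -0.24 (SE 0.22, interval -0.80 to 0.32, limma adjusted p = 0.902). Gfi1, the repressor that with C/EBP factors shapes neutrophil precursors, read 4.41 and 4.61 in Nol3-/- MPN arrays and 4.48 and 4.66 in Nol3+/+ arrays. Every one of these 4 values lay under the limit for dim genes, so Gfi1 was not tested. Its group means were 4.51 in Nol3-/- MPN cells and 4.57 in Nol3+/+ cells, and how much of them is background was not tested.

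Markers of mature neutrophils are given beside the myeloid factors. Of 12 markers listed for that cell type, 11 were tested, of which 9 had lower and 2 higher means (48.3% of all tested genes had lower means), with a median log2 difference of -0.24 and 0 passing the adjusted threshold. The summed linear signal of all 12 was 980 and 907 in Nol3-/- MPN arrays, against 1123 and 1685 in Nol3+/+ arrays. S100a9, a subunit of calprotectin, read 8.41 and 8.26 in Nol3-/- MPN arrays and 8.93 and 9.40 in Nol3+/+ arrays, and Retnlg, a resistin-like neutrophil gene, 4.83 and 4.47 in Nol3-/- MPN arrays and 5.09 and 7.12 in Nol3+/+ arrays. Both Nol3-/- MPN values of Retnlg lay under the limit for dim genes of 4.835, so it passed the filter only through the Nol3+/+ arrays. Ly6g, the surface antigen that defines mature mouse neutrophils, was dim, at 4.96 and 5.38 in Nol3-/- MPN arrays and 4.43 and 4.24 in Nol3+/+ arrays, and so ran the other way. Without Nol3+/+ replicate 2 the 11 markers split into 5 higher and 6 lower, with a median of -0.29. The Cebpb difference was then -0.46. Monocyte and macrophage markers, 11 of 12 with a row, had a summed linear signal of 559 and 625 in Nol3-/- MPN arrays and 647 and 621 in Nol3+/+ arrays. Of the 10 tested, 4 had higher and 6 lower means, with a median log2 difference of -0.04. The only 1 at an unadjusted p under 0.05, against 5.8% of all genes, was Adgre1, which was higher (log2 difference 0.37, SE 0.13, limma adjusted p = 0.841). The part of either list in the Cebpb difference was not tested. In sorted bulk cells, fewer cells that carry a transcript and less of it per cell cannot be told apart.

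The GATA genes were the steadiest of the set. Gata2, the stem and progenitor factor that is also used by mast cells, read 6.44 and 6.43 in Nol3-/- MPN arrays, against 6.37 and 6.39 in Nol3+/+ arrays. All 4 arrays lay within 0.07 log2 units, a range that was narrower in only 0.98% of tested genes, and the log2 difference was 0.05 (SE 0.17, interval -0.38 to 0.48, limma adjusted p = 0.978). Gata1, the X-linked master factor of red cells and megakaryocytes, read 5.19 and 5.30 in Nol3-/- MPN arrays, against 5.18 and 5.18 in Nol3+/+ arrays. The groups did not overlap by a margin of 0.01 log2 units, and the log2 difference was 0.07 (SE 0.12, interval -0.24 to 0.38, limma adjusted p = 0.958). The Gata2 minus Gata1 signal moved by -0.01 between the group means, and the Spi1 minus Gata1 signal, at 1.21 and 1.44 in Nol3-/- MPN arrays against 1.52 and 1.73 in Nol3+/+ arrays, by -0.30. These pairs are opposed or sequential in the circuit, and their shifts are descriptions with no test.

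Klf1, the activator of adult globin and red cell membrane genes, read 6.31 and 6.43 in Nol3-/- MPN arrays, against 6.47 and 6.19 in Nol3+/+ arrays. The Nol3-/- MPN values lay between the Nol3+/+ values, and the log2 difference was 0.04 (SE 0.19, interval -0.44 to 0.53, limma adjusted p = 0.988). Gfi1b, the repressor needed for red cell and platelet formation, read 6.35 and 6.50 in Nol3-/- MPN arrays, against 6.66 and 6.45 in Nol3+/+ arrays. These groups overlapped too, with a log2 difference of -0.13 (SE 0.19, interval -0.61 to 0.36, limma adjusted p = 0.945). Both genes carry the GATA element printed above, and neither these genes nor Gata1 and Gata2 passed the adjusted threshold. Of 14 erythroblast markers, 8 had a row, with a summed linear signal of 604 and 747 in Nol3-/- MPN arrays and 581 and 531 in Nol3+/+ arrays. Of the 7 tested, 0 reached an unadjusted p under 0.05, against 5.8% of all genes. Of these 7, 5 had lower and 2 higher means, with a median log2 difference of -0.10. Without Tfrc, which makes up the most of the sum, the sums were 288 and 320 in Nol3-/- MPN arrays and 325 and 319 in Nol3+/+ arrays. The adult globin genes had no single-symbol row and were not used here.

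**Figure D2:**
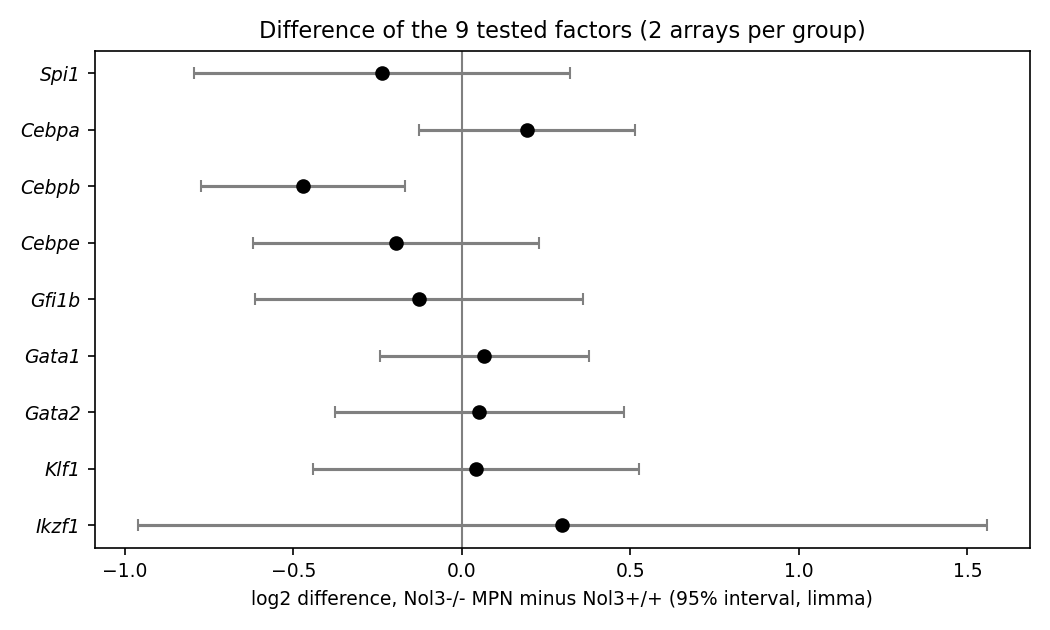
Log2 difference (x axis, Nol3-/- MPN minus Nol3+/+) of the 9 tested factors with limma's 95% interval, 2 arrays per group. The intervals of 8 factors hold 0, that of Cebpb runs from -0.78 to -0.17 before adjustment over all genes, and that of Ikzf1 is the widest.

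Ikzf1 stood apart from the other factors by its spread within groups. Ikaros read 6.99 and 5.74 in Nol3-/- MPN arrays, against 5.64 and 6.49 in Nol3+/+ arrays. Nol3-/- MPN replicate 1 and Nol3+/+ replicate 2 were high, and the other arrays low, so the genotypes interleaved. The SD was 0.89 in Nol3-/- MPN cells and 0.60 in Nol3+/+ cells (n = 2 each), and the log2 difference was 0.30 (SE 0.50, interval -0.96 to 1.56, limma adjusted p = 0.955). Ikzf1 was the only member of 10 whose 4 arrays ranged over more than 1 log2 unit, as 9.56% of all tested genes did. The other 9 factors ranged over less than 0.6 log2 units. With 1 array left out, the Ikzf1 difference ran from -0.33 without Nol3-/- MPN replicate 1 to 0.93 without Nol3-/- MPN replicate 2, so its sign rests on single arrays.

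**Figure D3:**
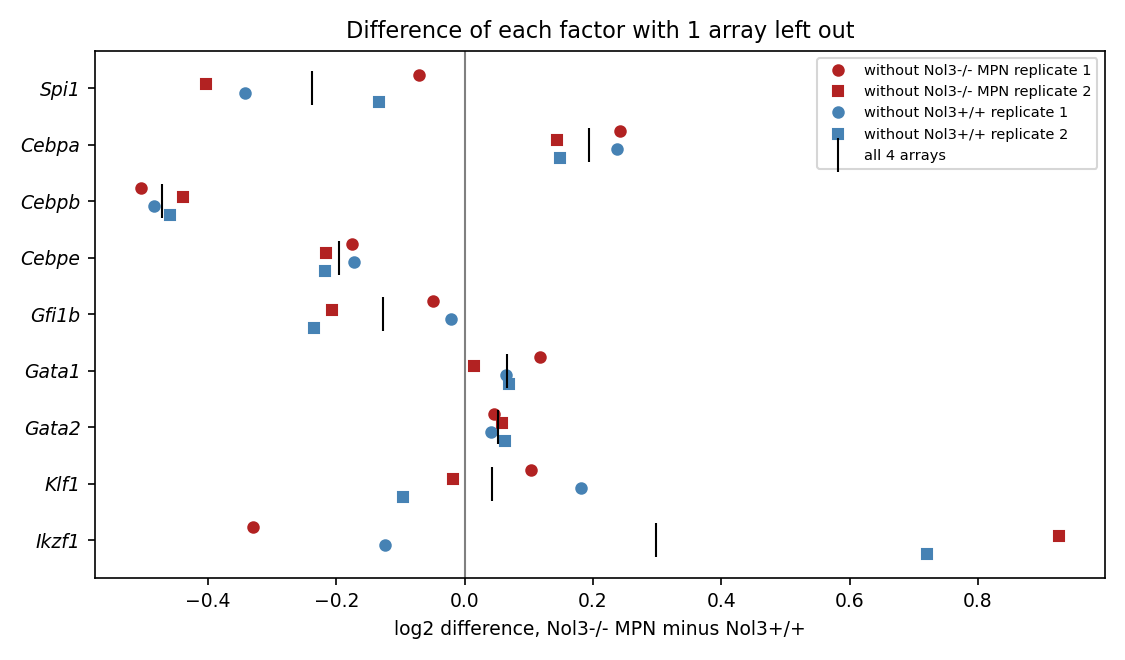
Log2 difference (x axis, Nol3-/- MPN minus Nol3+/+) of the 9 tested factors with 1 array left out at a time (red, a Nol3-/- MPN array left out; blue, a Nol3+/+ array left out) and with all 4 arrays (black bar). Cebpb stays between -0.50 and -0.44, whereas Ikzf1 and Klf1 lie on both sides of 0.

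The same comparison was made for each factor. The Cebpb difference lay between -0.50 and -0.44 whichever array was left out, and its unadjusted limma p exceeded 0.05 only without Nol3-/- MPN replicate 2. Klf1 ran from -0.10 to 0.18 and so had no settled sign. Spi1 ran from -0.40 to -0.07, Gfi1b from -0.23 to -0.02 and Gata1 from 0.02 to 0.12, all without a change of sign. Over all genes, the count past the adjusted threshold was 0 without Nol3-/- MPN replicate 1, 0 without Nol3-/- MPN replicate 2, 18 without Nol3+/+ replicate 1 and 39 without Nol3+/+ replicate 2, and no factor was among them.

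The genes with the most similar profiles were taken for the 3 factors with the widest range, by Euclidean distance between row-centred log2 signals over the 4 arrays, among 13686 tested protein-coding and lncRNA genes, leaving out predicted genes and receptor families known by serial names. For Ikzf1 they were Psme3, an activator subunit of the proteasome, the repressor gene E2f6 and Itga4, an integrin subunit of stem cell homing, at distances of 0.17, 0.17 and 0.19. For Cebpb they were Rpl7l1, Arf3 and Ahsa2, at 0.04, 0.04 and 0.06, and for Spi1 Airn, Gal3st2 and Ccdc77, each at about 0.02. Over 4 arrays many genes share any given profile, so nearness is a description only.

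Close relatives of the factors gave no call. Of 17 with a row, 13 were tested, 8 with higher and 5 with lower means in Nol3-/- MPN cells, and 0 reached an unadjusted p under 0.05, against 5.8% of all genes. Their median log2 difference of 0.01 ran from -0.10 without Nol3-/- MPN replicate 2 to 0.13 without Nol3-/- MPN replicate 1. Gata3, the T cell relative of GATA1, read 4.68 and 4.90 in Nol3-/- MPN arrays and 4.96 and 4.98 in Nol3+/+ arrays (log2 difference -0.18). Ikzf2, the Ikaros relative Helios, read 7.21 and 7.64 in Nol3-/- MPN arrays and 7.44 and 7.24 in Nol3+/+ arrays (0.09). Gata4 and Gata5, GATA factors known from heart and gut, differed by -0.24 and 0.11. Cebpd, Ikzf3, Spib and Spic were dim.

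Among partner factors and cofactors, Irf8 and Hdac1 had the smallest p. Of 25 partners, 24 were tested, 11 with higher and 13 with lower means, with a median log2 difference of -0.06 and 0 past the adjusted threshold. The median turned to 0.09 without Nol3+/+ replicate 2. At an unadjusted p under 0.05 there were 2 of 24, both lower, against 5.8% of all genes in either direction and 2.07% lower. The count depended on which array was left out, and so did the share of all genes. Irf8, which binds DNA with PU.1 in monocyte and dendritic cell precursors, read 6.41 and 5.65 in Nol3-/- MPN arrays, against 7.996 and 7.725 in Nol3+/+ arrays (log2 difference -1.83, SE 0.32, limma adjusted p = 0.696). The dimmer of its 2 rows disagreed in size, at 5.30 and 5.23 in Nol3-/- MPN arrays and 5.39 and 5.44 in Nol3+/+ arrays, a difference of -0.15. Hdac1, a histone deacetylase in the corepressor complexes that GFI1 proteins and Ikaros recruit, read 7.24 and 7.77 in Nol3-/- MPN arrays and 8.51 and 8.66 in Nol3+/+ arrays (log2 difference -1.08, SE 0.27, limma adjusted p = 0.841). For neither gene did the groups overlap, as for 35.5% of all tested genes and for 5 of the 9 factors. Tcf12, an E protein that pairs with TAL1, read 6.47 and 6.87 in Nol3-/- MPN arrays and 6.12 and 6.24 in Nol3+/+ arrays (log2 difference 0.49, SE 0.21, limma adjusted p = 0.841). Among the cofactors of GATA1, Zfpm1 (FOG1) differed by 0.30, Lmo2 by -0.25, Tal1 by -0.15 and Ldb1 by 0.09, with limma adjusted p-values of 0.863, 0.853, 0.931 and 0.969. Kdm1a and Rcor1, the demethylase and its corepressor that bind the SNAG domain of GFI1 proteins, differed by 0.01 and -0.17 (limma adjusted p = 0.999 and 0.955). Chd4 and Hdac2 of the NuRD complex, another partner of Ikaros, differed by 0.33 and -0.18 (limma adjusted p = 0.863 and 0.878).

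**Figure D4:**
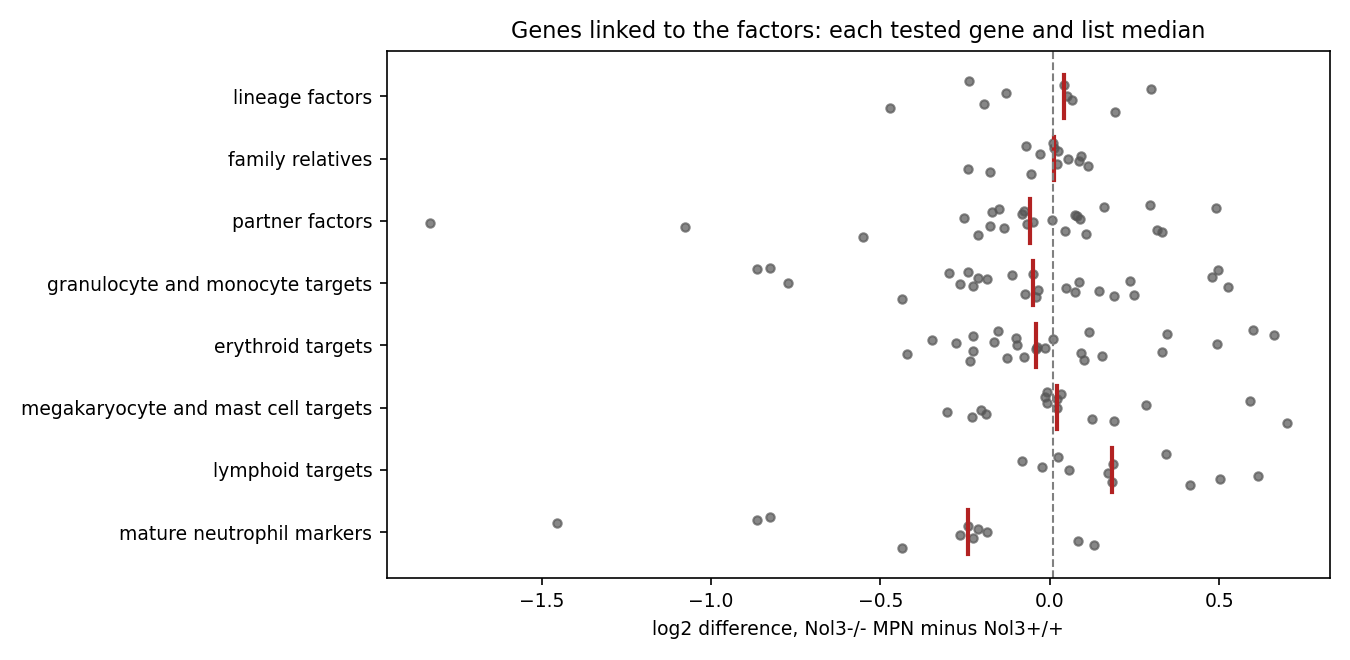
Log2 difference (x axis, Nol3-/- MPN minus Nol3+/+) of every tested gene (grey points) of the 10 factors, their relatives, partners and target gene lists, and mature neutrophil markers. Red bars are list medians and the dashed line is the median of all tested genes, 0.01. Medians lie between -0.24 for neutrophil markers and 0.19 for lymphoid targets, and single genes such as Irf8 at -1.83 in the brighter of its 2 rows and Retnlg at -1.46 lie far from their list median.

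Genes of the granulocyte and monocyte programme, which PU.1 and C/EBP factors activate, went both ways. Of 31 with a row, 25 were tested, 10 with higher and 15 with lower means, a median log2 difference of -0.05 and 0 past the adjusted threshold. The median turned to 0.02 without Nol3+/+ replicate 2. At an unadjusted p under 0.05 there were 3 of 25, against 5.8% of all genes, with Prtn3 higher and S100a9 and S100a8 lower. This count, too, depended on which array was left out, as did the share of all genes. Prtn3, a primary granule protease made in early precursors, read 5.18 and 5.25 in Nol3-/- MPN arrays and 4.78 and 4.66 in Nol3+/+ arrays (log2 difference 0.50, SE 0.12, limma adjusted p = 0.841). Both Nol3+/+ values lay under the limit for dim genes of 4.835. Prtn3 thus passed the filter only through the Nol3-/- MPN arrays. How much of its Nol3+/+ signal is background was not tested. S100a8, the calprotectin partner of S100a9, read 6.60 and 6.58 in Nol3-/- MPN arrays and 7.03 and 7.88 in Nol3+/+ arrays (log2 difference -0.86, SE 0.33, limma adjusted p = 0.841). Other primary granule genes had differences of 0.48 for Mpo, 0.25 for Ctsg and 0.07 for Elane. The secondary and later granule genes Ltf, Camp, Ngp and Mmp9 had differences of -0.27, -0.44, -0.24 and -0.21. None of these 7 genes passed (limma adjusted p between 0.863 and 0.971), and the granule classes were not tested against each other. For Camp and Ngp the Nol3-/- MPN arrays, at 5.45 and 4.55 and at 6.77 and 6.62, lay between the Nol3+/+ arrays, at 4.49 and 6.38 and at 6.27 and 7.61, so the sign of both differences rests on Nol3+/+ replicate 2. Of the 12 neutrophil markers above, 9 also stand in this list, so the lists are not independent.

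The erythroid programme bound by GATA1 and KLF1 showed no common direction. All 14 erythroblast markers above also stand in its list, so those 2 lists are not independent. Of 30 genes with a row, 25 were tested, 10 with higher and 15 with lower means, a median log2 difference of -0.04 and 0 past the adjusted threshold. Without Nol3-/- MPN replicate 1 the split was 13 higher and 12 lower, with a median of 0.0092. The number of these genes at an unadjusted p under 0.05 varied with the array left out, as did the share of all genes. With all arrays, the only gene of the 25 at an unadjusted p under 0.05, against 5.8% of all genes, was Fech, the last enzyme of haem synthesis, which read 6.02 and 5.90 in Nol3-/- MPN arrays and 5.46 and 5.47 in Nol3+/+ arrays (log2 difference 0.49, SE 0.14, limma adjusted p = 0.841). Tfrc, the transferrin receptor, differed by 0.66 (SE 0.26) and Xpo7, a nuclear exporter of maturing red cells, by 0.60 (SE 0.27), each with a limma adjusted p of 0.841. Epor, the erythropoietin receptor and a direct GATA1 target, read 5.83 and 5.81 in Nol3-/- MPN arrays and 5.92 and 5.79 in Nol3+/+ arrays (log2 difference -0.04), and Slc4a1, the red cell anion exchanger, 5.86 and 5.84 in Nol3-/- MPN arrays and 5.91 and 5.99 in Nol3+/+ arrays (-0.10).

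Megakaryocyte and mast cell genes, which depend on GATA1, GATA2 and GFI1B, had 15 tested members of 21 with a row, 8 higher and 7 lower, with a median log2 difference of 0.02 and 0 past the adjusted threshold. The median turned to -0.01 without Nol3-/- MPN replicate 2 and to -0.04 without Nol3+/+ replicate 1. Pf4, the platelet chemokine, read 5.14 and 5.52 in Nol3-/- MPN arrays and 4.68 and 4.80 in Nol3+/+ arrays (log2 difference 0.59, SE 0.17, limma adjusted p = 0.841). Both Nol3+/+ values lay under the limit for dim genes of 4.835. Pf4 thus passed the filter only through the Nol3-/- MPN arrays. How much of its Nol3+/+ signal is background was not tested. The integrin genes Itgb3 and Itga2b, whose products pair on platelets, differed by -0.30 and -0.19. Both Nol3-/- MPN values of Itgb3, 4.83 and 4.63, lay under the same limit. Cpa3, the mast cell carboxypeptidase, read 7.45 and 8.16 in Nol3-/- MPN arrays and 6.15 and 8.06 in Nol3+/+ arrays, with only Nol3+/+ replicate 1 low.

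Lymphoid genes on which Ikaros and PU.1 act had mostly higher means in Nol3-/- MPN cells. Of 14 with a row, 11 were tested, 9 with higher and 2 with lower means, where 51.7% of all genes had higher means. Their median log2 difference was 0.19, and 0 passed the adjusted threshold. With 1 array left out, the median lay between 0.14 and 0.25. Cd79b, the signalling chain of the B cell receptor, read 6.33 and 6.38 in Nol3-/- MPN arrays and 5.85 and 5.86 in Nol3+/+ arrays (log2 difference 0.50, SE 0.15, limma adjusted p = 0.841). Satb1 and Ccr9, an early lymphoid chromatin organiser and a thymus homing receptor, differed by 0.34 and 0.41 (SE 0.15 and 0.18, limma adjusted p = 0.841 each). Dntt, the polymerase that adds bases at antigen receptor joints, read 7.34 and 7.40 in Nol3-/- MPN arrays and 6.32 and 7.19 in Nol3+/+ arrays (log2 difference 0.62, SE 0.33, limma adjusted p = 0.843). Flt3, a receptor of lymphoid-primed progenitors, read 7.44 and 6.21 in Nol3-/- MPN arrays and 6.84 and 6.70 in Nol3+/+ arrays (log2 difference 0.06), and Il7r, Rag2 and Vpreb1 were dim. Of the B cell markers, 7 had a row and 5 were tested. The 7 had a summed linear signal of 303 and 317 in Nol3-/- MPN arrays and 273 and 267 in Nol3+/+ arrays. All 5 tested markers also stand in the lymphoid list, so the lists are not independent. The part of B cell markers in these differences was not tested. The Ikzf1 signal overlapped between the groups, as given above.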

How the data were processed

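Gene expression was measured on 4 whole-transcript Affymetrix arrays, 2 per group, from RNA amplified by single-primer isothermal amplification, per the labels' protocols. The authors deposited 1 table of 41345 rows, treated here as log2 signals from their range (2.84 to 13.5). How the signals were background-corrected and normalized, and the log base, is not given in the sources used here. Software was Affymetrix Expression Console and Transcriptome Analysis Console, per the submitters' processing notes.

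The platform annotation gave 23521 rows with 1 gene symbol, 1814 with several and 16010 with none. Of several rows of a gene, the one with the highest mean was used. Genes with a mean signal below the 25th percentile of all genes (4.835) were left out as dim, which left 16635 genes. Nol3-/- MPN was compared with Nol3+/+ by limma 3.58.1 in R 4.3.3 (lmFit, eBayes with a variance trend, 2 residual and 3.19 prior degrees of freedom, two-sided), with Benjamini-Hochberg adjustment over all genes and a threshold of 0.05. The script was tested on simulated data, where it recovered the simulated differences. Drawn with the trended spread that limma estimates, most changed genes passed the adjusted threshold, whereas none passed when each gene had its own observed SD. A count of 0 calls here therefore does not show that genes did not differ. The simulated differences were larger than that of any tested factor, and differences as small as those of the factors were not simulated. SE is limma's, SD that of 2 arrays. The number of arrays limits the precision, and detection calls were not used here.

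The labels number replicates 1 and 2 in both groups. Deviations of same-numbered arrays from their group means correlated at r = 0.05 across genes, and the labels tie the numbers to no shared litter or batch, so the numbers were not taken as pairs. Members and lists were chosen with earlier results of these data known. The text names the 10 factors, Nol3, Xist, Eif2s3y, Uty, the sort genes and genes of the stem and progenitor list. It also names the 3 members of each gene list with the smallest p plus examples by role, and the nearest profiles. Of 10 marker lists, medians lay between -0.24 (mature neutrophil) and 0.19 (B cell), with 0 genes called at the adjusted threshold. Promoter sequences and chromosomes come from RefSeq (GRCm38.p6). Alternatives covered the filter, normalization, variance model, rows per gene, sex-linked genes, a replicate block and each array left out.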

Additional observations from a re-analysis of the deposited data

How the results depend on the processing

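Under 13 other settings, each of the 9 tested factors stayed short of the adjusted threshold wherever it was tested (113 differences), and 0 factors passed it. The count of all genes past it was 4. It was 0 with the replicate block, 0 with X- and Y-linked genes left out, and between 0 and 39 with 1 array left out. With the replicate block the factors gave the same counts as without it, 0 past the adjusted threshold and 1, Cebpb, at an unadjusted p under 0.05, so the block changed no call on a factor. The count of factors at an unadjusted p under 0.05 was 1. It was 0 with the dim limit at the 50th percentile, where Cebpb is left out and 6 factors remain, and between 0 and 1 with 1 array left out. The median log2 difference of the factors, 0.04, was -0.0090 with no filter, where Gfi1 enters, -0.043 with the limit at the 50th percentile, 0.0034 after quantile normalization, -0.043 with X- and Y-linked genes left out, where Gata1 is not tested, and between -0.096 and -0.019 with 1 array left out, so its sign is not settled. Of 208 list medians under other settings, 16 moved by more than the spread between replicates. The medians of the relatives and of the megakaryocyte and mast cell targets turned to -0.02 and -0.0024 after quantile normalization. Those of the partners and of the granulocyte and monocyte targets turned to 0.09 and 0.02 without Nol3+/+ replicate 2. With 1 array left out, the medians ran from -0.10 to 0.13 for the relatives, -0.08 to 0.0092 for the erythroid targets and -0.04 to 0.06 for the megakaryocyte and mast cell targets, and from 0.14 to 0.25 for the lymphoid targets and -0.43 to -0.17 for the neutrophil markers. The cause was not tested. Low signals near the dim limit, as for Cebpb in Nol3-/- MPN cells, and 2 arrays a side limit what can be seen.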
